A study of Mus musculus with 8 samples.

Results

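RNA levels of 8 genes of neural progenitors and synapses were followed in pre-iPSCs, which are cells stalled partway through reprogramming to pluripotency and here came from neural stem cells. The genes were Nes, Sox21, Ncam1, Fabp7, Olig2, Pax6, Homer2 and Nptx2. Every probe annotated to them was taken and kept apart, which gave 16 of the 45281 probes of an Illumina bead array and 8 of 19057 annotated symbols. The list was selected on intensities of these same arrays, since Nptx2, Homer2, Ncam1 and Nes had stood out against empty vectors in cells with the Nanog transgene. Differences of the 8 genes in those contrasts are therefore given below as a description, and the number of members that passed the test there is stated with nothing read from it.

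All groups were female mouse cells of strain 129/MF1 with an Oct4 reporter that carries GFP and puromycin resistance. They were kept in serum with LIF and stably transfected with PiggyBac vectors that hold a CAG promoter, and they were taken at day 0, before any change of medium. The 4 groups of 2 arrays carried empty vectors only (EV), Nanog with an empty vector (Nanog), Sin3a with an empty vector (Sin3a), or Nanog with Sin3a (Nanog+Sin3a). Nanog is a DNA-binding homeobox protein that helps to hold embryonic stem cells in the pluripotent state. Sin3a is a scaffold on which histone deacetylases and other co-repressors assemble. All groups went through drug selection with hygromycin, blasticidin or both. Nothing in the labels says that the replicate arrays of a group came from separate cultures, so p-values cover array-to-array spread, which may be technical.

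Neural stem cells are known by a set of structural proteins and transcription factors that are lost as cells leave that fate. Nestin (Nes) is an intermediate filament of progenitors, Fabp7 is a fatty acid-binding protein of radial glia, and Pax6, Olig2 and Sox21 are transcription factors that pattern the neural tube and direct progenitor fate. Ncam1 is a cell adhesion molecule of neurons and progenitors. Homer2 is a scaffold under excitatory synapses that links metabotropic glutamate receptors to calcium stores, and Nptx2 is a secreted pentraxin that clusters AMPA receptors.

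Both transgenes were seen as RNA. One Nanog probe read 364.8 and 485.8 with Nanog and 289.5 and 285.2 with Nanog+Sin3a, against values below 0 on the EV and Sin3a arrays. The other Nanog probe did not show the transgene. It read 14.4 and 13.8 with EV, 21 and 13 with Nanog, and 5.6 and 13.6 with Nanog+Sin3a. The Sin3a probe read 1142 to 1485 on the 4 arrays with the Sin3a transgene and 262 to 472.5 on the others. The deposited intensities are background-subtracted, so they reach below 0, and a probe at or below 16 intensity units was treated as not measured. The second Sin3a array was far noisier than the rest. Among 9585 probes with a mean log2 intensity between 5 and 9, 68.6% differed by over 1 (log2) between the Sin3a arrays, against 0.230% between the EV arrays, 1.17% between the Nanog arrays and 2.36% between the Nanog+Sin3a arrays. Above a mean log2 of 9 that share was 0.224% for Sin3a. None of the 16 member probes had a mean log2 above 9, so none lies in the range where the second Sin3a array matched the first. The tests below therefore used the other 7 arrays, in which Sin3a is a group of 1 array that is assumed to vary like the others.

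**Figure D1:**
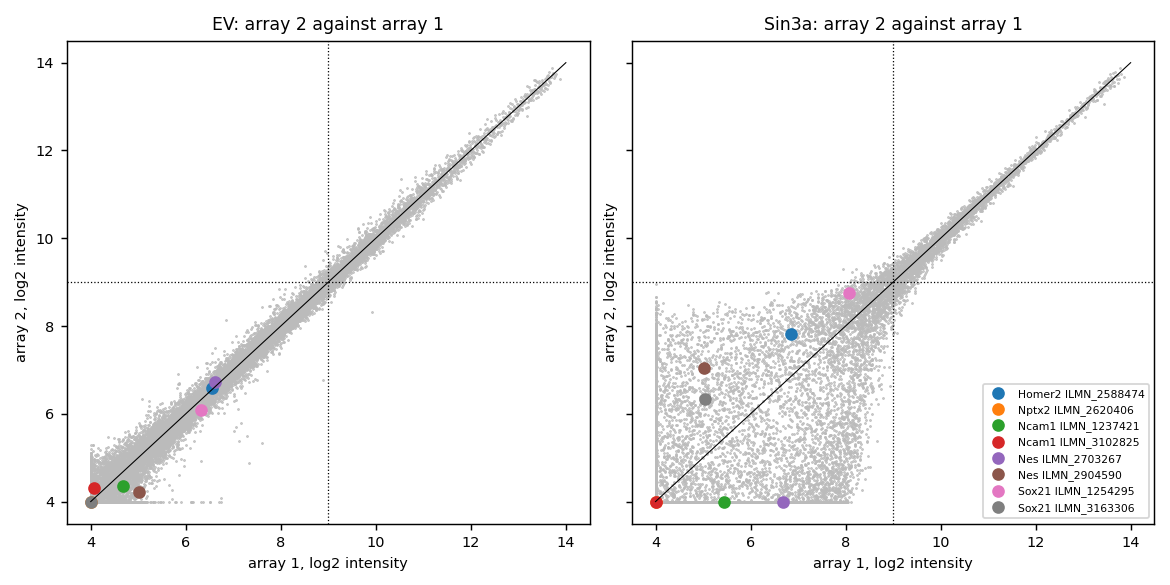
Log2 intensity on the second array of a group (vertical) against the first (horizontal), for EV (left) and Sin3a (right), with values below 16 raised to 16 (log2 of 4). Grey points are the 18558 probes tested in 7 arrays, coloured points are the 8 tested member probes, and dotted lines mark log2 of 9. The member probes lie near the diagonal in EV, while 4 of the 8 differ by over 1 between the Sin3a arrays and 0 do so between the EV arrays.

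The members fell into those measured and those not. On the 7 arrays, 7 of the 16 probes stayed at or below 16 throughout and 4 were above it on all 7. The 8 probes above 16 on at least 2 arrays were tested, and they belong to 5 of the 8 genes, namely Nes, Sox21, Ncam1, Homer2 and Nptx2. The other 8 probes ranged from -17.2 to 17.9, and 1 of them was above 16 on 1 array. The 4 other tested probes passed through only some arrays. Nptx2 ILMN_2620406 was above 16 on the 4 arrays with the Nanog transgene alone, Sox21 ILMN_3163306 on the first Sin3a array and 1 Nanog+Sin3a array, and Ncam1 ILMN_3102825 on the EV arrays alone, so these 3 had to differ between groups. Nes ILMN_2904590 was above 16 on 6 of 7.

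**Figure D2:**
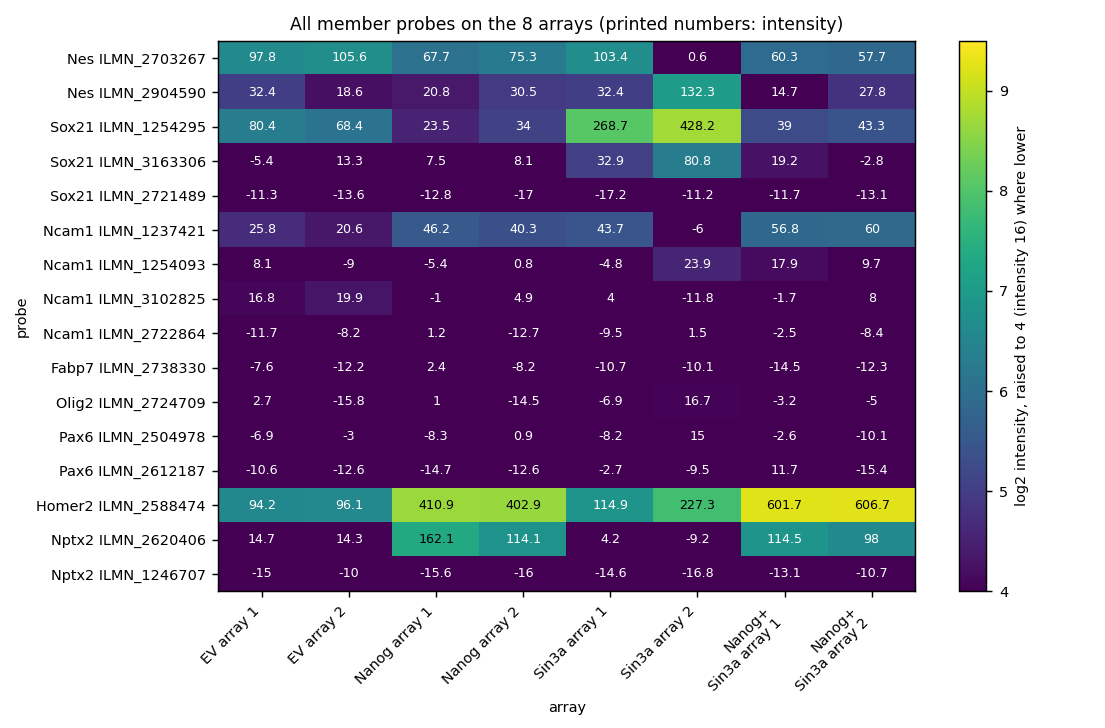
Intensity of the 16 member probes (rows) on the 8 arrays (columns), printed in each cell, with the colour giving log2 intensity raised to 4 (intensity 16) where lower. Homer2 is brightest on the Nanog+Sin3a arrays and Sox21 on the Sin3a arrays. The rows of Fabp7, Olig2 and Pax6 are dark throughout, and their only value above 16 is Olig2 at 16.7 on the second Sin3a array.

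Of the progenitor transcription factors, Pax6 and Olig2 were not measured in any group. Pax6, a paired-box factor of cortical and eye progenitors, read -15.4 to 11.7 in 1 probe and -10.1 to 15 in the other over all 8 arrays. Olig2, a basic helix-loop-helix factor of motor neuron and oligodendrocyte progenitors, read -15.8 to 2.7 on 7 arrays and 16.7 on the second Sin3a array. Fabp7 was likewise at or below 16 on all 8 arrays, from -14.5 to 2.4. These 3 genes therefore gave no difference between groups that could be read. Fewer cells of a kind and less RNA per cell cannot be told apart in such bulk samples.

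Sox21, an HMG-box factor that counteracts the progenitor programme of its SoxB relatives, was measured and differed between groups in its brightest probe (ILMN_1254295). That probe read 80.4 and 68.4 with EV, 23.5 and 34.0 with Nanog, 39.0 and 43.3 with Nanog+Sin3a, and 268.7 and 428.2 with Sin3a. The Sin3a arrays were the highest of all, the EV arrays came next, and the 4 arrays with the Nanog transgene were the lowest, with no overlap between any pair of groups. The difference from EV was -1.39 (log2, SE 0.24, n = 2 against 2) with Nanog, or 2.62-fold lower, and -0.85 (SE 0.24), or 1.80-fold lower, with Nanog+Sin3a. Against EV the first Sin3a array was 3.62-fold higher (log2 1.86, SE 0.29).

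The 2 other Sox21 probes differed in what they showed. ILMN_3163306 was at or below 16 on both EV arrays (-5.4 and 13.3) and both Nanog arrays (7.5 and 8.1), and it read 19.2 and -2.8 with Nanog+Sin3a and 32.9 and 80.8 with Sin3a. It thus shared the high Sin3a values and could not show the lower values with Nanog, since its EV values were already at the floor. ILMN_2721489 stayed between -17.2 and -11.2 on all 8 arrays.

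Nestin was lower in cells with the Nanog transgene in the brighter of its 2 probes. ILMN_2703267 read 97.8 and 105.6 with EV, 67.7 and 75.3 with Nanog, 60.3 and 57.7 with Nanog+Sin3a, and 103.4 and 0.6 with Sin3a. Both EV values and that of the first Sin3a array were high, the 4 with the Nanog transgene were low without overlap, and the second Sin3a array lay far below the first. The difference from EV was -0.51 (log2, SE 0.16), or 1.42-fold lower, with Nanog and -0.78 (SE 0.16), or 1.72-fold lower, with Nanog+Sin3a. The other probe, ILMN_2904590, was near the floor at 14.7 to 32.4 on the 7 arrays. Its groups overlapped, with differences from EV of 0.04 (SE 0.39) with Nanog and -0.22 (SE 0.39) with Nanog+Sin3a, and it read 132.3 on the second Sin3a array. The lower level seen in the brighter probe was thus not seen in the dimmer one, whose larger standard error would not resolve a difference of that size.

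Ncam1 has 4 probes, annotated to 3 transcript records, and only ILMN_1237421 was above 16 on all 7 arrays. It read 25.8 and 20.6 with EV, 46.2 and 40.3 with Nanog, 56.8 and 60.0 with Nanog+Sin3a, and 43.7 and -6.0 with Sin3a. The EV arrays were the lowest of the 7, the Nanog arrays and the first Sin3a array lay in the middle, and the Nanog+Sin3a arrays were the highest. Against EV the level was 1.87-fold higher with Nanog (log2 0.90, SE 0.21) and 2.53-fold higher with Nanog+Sin3a (log2 1.34, SE 0.21), and 1.90-fold higher on the first Sin3a array (log2 0.92, SE 0.26). With the floor at 32 these log2 differences were 0.43 with Nanog and 0.87 with Nanog+Sin3a. The probe ILMN_3102825, annotated to the same record, ran the other way just at the floor, with 16.8 and 19.9 on the EV arrays and values from -1.7 to 8.0 on the other 5 of the 7. Its log2 difference from EV, -0.19 with Nanog and with Nanog+Sin3a, is set by the floor and was -1.19 with a floor of 8. ILMN_1254093 was above 16 on 1 Nanog+Sin3a array (17.9) and on the second Sin3a array (23.9), and ILMN_2722864 stayed at or below 1.5 throughout.

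Homer2 and Nptx2, the synaptic members, were the members with the largest differences from EV with Nanog and with Nanog+Sin3a. The single Homer2 probe (ILMN_2588474) read 94.2 and 96.1 with EV, 410.9 and 402.9 with Nanog, 601.7 and 606.7 with Nanog+Sin3a, and 114.9 and 227.3 with Sin3a. The order was EV, Sin3a, Nanog and Nanog+Sin3a, and neighbouring groups did not overlap, though the Sin3a arrays themselves differed by 0.98 (log2). The level was 4.28-fold that of EV with Nanog (log2 2.10, SE 0.10) and 6.35-fold with Nanog+Sin3a (log2 2.67, SE 0.10). Its mean lay at the 82.3 percentile of all probes with EV and at the 94.8 percentile with Nanog+Sin3a.

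Nptx2 went from not measured to measured. ILMN_2620406 read 14.7 and 14.3 with EV and 4.2 and -9.2 with Sin3a, all at or below 16, against 162.1 and 114.1 with Nanog and 114.5 and 98 with Nanog+Sin3a. Since EV was at the floor, the rise is a lower bound, at least 8.5-fold with Nanog (log2 3.09, SE 0.23) and at least 6.62-fold with Nanog+Sin3a (log2 2.73, SE 0.23). The Nanog and Nanog+Sin3a arrays overlapped. The second Nptx2 probe, ILMN_1246707, read -16.8 to -10.0 on all 8 arrays and showed none of this.

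**Figure D3:**
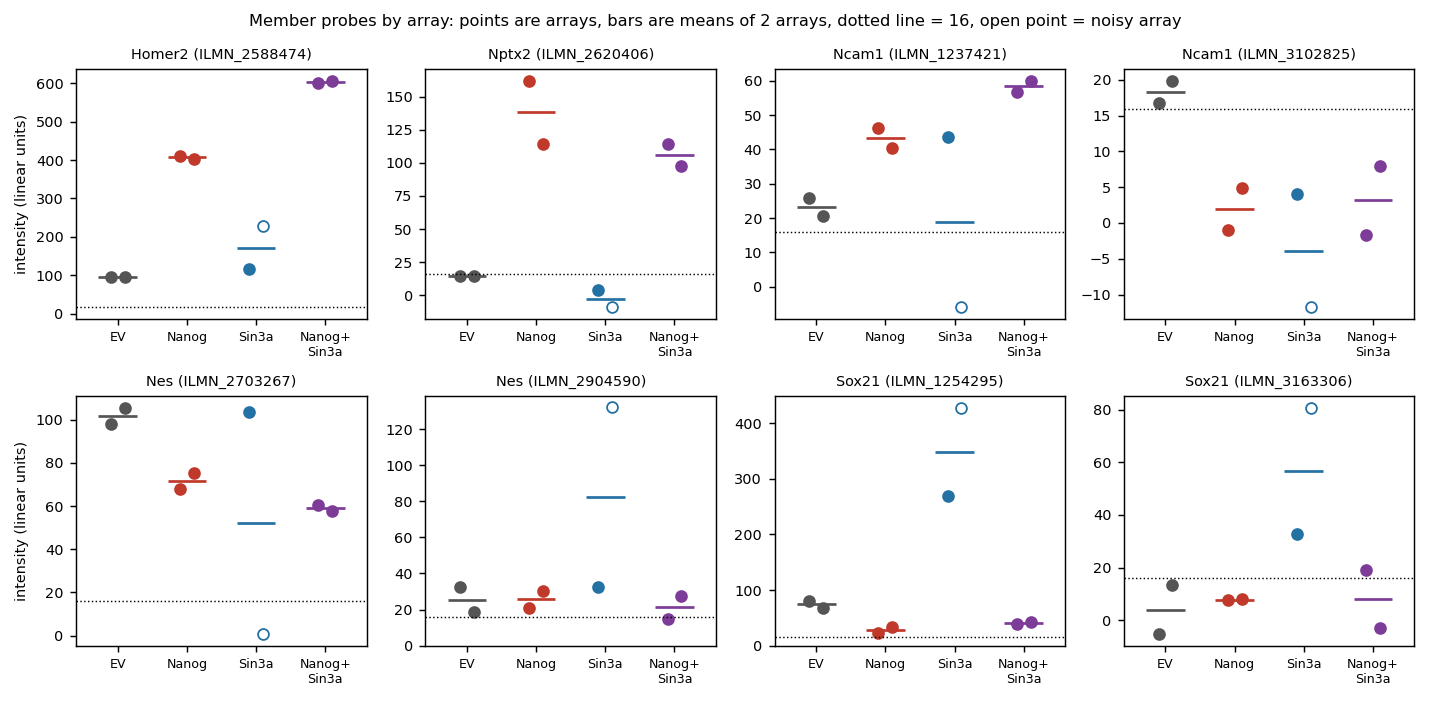
Intensity (linear units) of the 8 tested member probes, by group. Points are arrays, horizontal bars are means of 2 arrays, the dotted line is 16, and the open point is the second Sin3a array. Homer2 and Nptx2 are high on the 4 arrays with the Nanog transgene, and Sox21 is high on the Sin3a arrays.

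The regions before the start sites of Homer2 and Sox21 are shown because Homer2 was higher and Sox21 lower than with EV where the Nanog transgene was present. The promoter table from RefSeq (build GRCm38.p6) held 6 of the 8 genes, all but Ncam1 and Nptx2. Each run below is the 250 bases before a start site, on the minus strand and in the direction of transcription. Capitals mark TAAT (the core of homeodomain sites), ACAANG (the core of Sox sites) and GGGCGG (the GC box), each searched on both strands, with overlapping copies counted apart.
Homer2, start nearer the gene's beginning, chr7:81706926-81707175: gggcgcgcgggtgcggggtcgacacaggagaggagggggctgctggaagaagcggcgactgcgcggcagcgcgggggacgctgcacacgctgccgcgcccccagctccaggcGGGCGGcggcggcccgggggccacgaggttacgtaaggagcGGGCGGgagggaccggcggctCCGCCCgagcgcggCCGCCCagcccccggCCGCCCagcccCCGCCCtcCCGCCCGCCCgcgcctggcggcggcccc
Homer2, inner start, chr7:81692966-81693215: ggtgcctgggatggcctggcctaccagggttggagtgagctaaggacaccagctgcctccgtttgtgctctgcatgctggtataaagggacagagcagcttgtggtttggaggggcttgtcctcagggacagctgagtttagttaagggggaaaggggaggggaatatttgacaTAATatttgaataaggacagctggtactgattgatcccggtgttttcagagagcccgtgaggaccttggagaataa
Sox21, chr14:118237031-118237280: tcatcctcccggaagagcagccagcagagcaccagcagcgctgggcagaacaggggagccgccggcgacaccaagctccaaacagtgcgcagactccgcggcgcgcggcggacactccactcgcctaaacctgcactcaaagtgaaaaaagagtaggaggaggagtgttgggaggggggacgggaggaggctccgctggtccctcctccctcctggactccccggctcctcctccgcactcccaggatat
The first Homer2 window was 83.2% G and C, held 40 CpG pairs (more than 98.7% of 32851 windows of the same length) and 8 GC boxes. The inner Homer2 window was 52.0% G and C, held 3 CpG pairs and had 1 TAAT, 76 bases before the start. The Sox21 window was 65.2% G and C with 17 CpG pairs, and held none of the 3 motifs. Of all 32851 windows, 54.9% held TAAT, 36.3% ACAANG and 32.7% GGGCGG. These matches describe letters only, and which Homer2 start was used in these cells was not measured.

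Nanog against EV and Nanog+Sin3a against EV are the comparisons in which the members had stood out before. At an adjusted p under 0.05 in limma over 18558 probes in 7 arrays, 3 of the 8 tested member probes were called with Nanog, where 2.04% of all tested probes were called. They were Homer2 and Nptx2 (higher) and Sox21 ILMN_1254295 (lower). With Nanog+Sin3a, 4 of 8 were called, where 5.87% of all tested probes were called. They were Homer2, Nptx2 and Ncam1 ILMN_1237421 (higher) and Nes ILMN_2703267 (lower). Because the members were chosen with these contrasts in view, nothing is read from the counts. With all 8 arrays both counts were 0 of 9, with 3 and 2 probes at an unadjusted p under 0.05. There limma called 0% and 0.137% of 19673 probes, and 6.8% and 9.21% had an unadjusted p under 0.05. Leaving out 1 array of a compared group left 1 array there, and limma's calls were then lost over all probes, not among members alone. Leaving out either Nanog+Sin3a array took the count for Nanog to 1, where limma called 6 of all tested probes. Leaving out either Nanog array took the count for Nanog+Sin3a to 2, where limma called 209 (first array out) or 473 (second array out) of all tested probes.

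**Figure D4:**
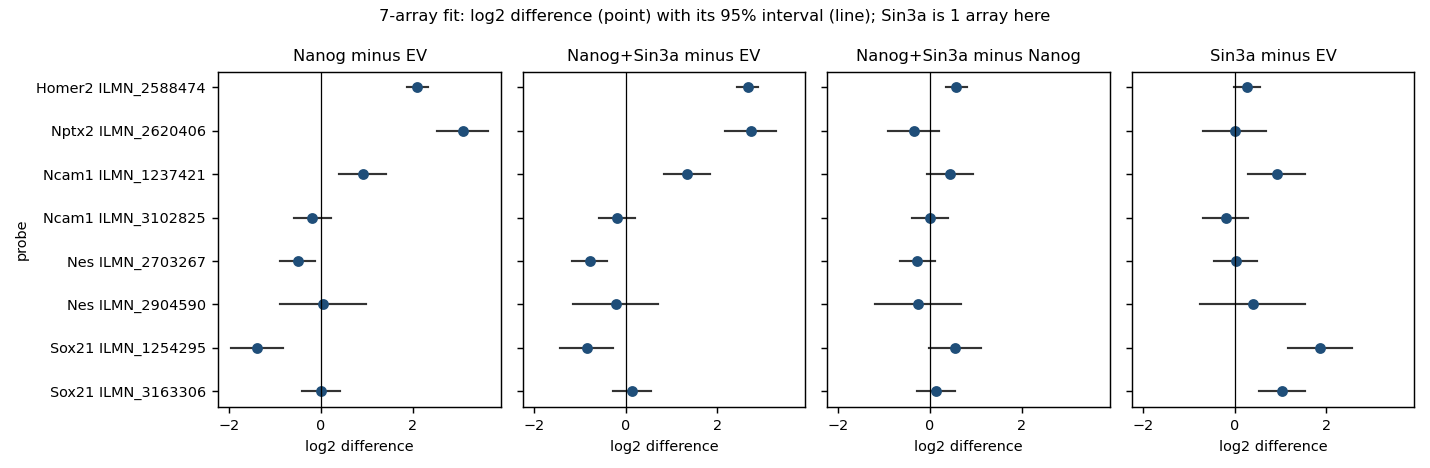
Log2 difference (point) with its 95% interval (line) for the 8 tested member probes in 4 comparisons of the 7-array limma fit. The comparisons with EV share the EV arrays, and the Sin3a group is 1 array here. Homer2 and Nptx2 lie farthest to the right for Nanog and Nanog+Sin3a, and Sox21 ILMN_1254295 lies farthest to the right for Sin3a.

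Nanog+Sin3a against Nanog asks what Sin3a changed in cells that already carried Nanog. The members were chosen with earlier results of these same 4 arrays known, so the values are a description and their p-values are no support for a difference. Homer2 was 1.48-fold higher with both transgenes, at 601.7 and 606.7 against 410.9 and 402.9 (log2 0.57, SE 0.10, 95% interval 0.34 to 0.80), and this did not pass limma's test over all probes (adjusted p = 0.206, and 0.201 to 0.524 with any 1 of the 7 arrays left out). Sox21 ILMN_1254295 differed by 0.54 (95% interval -0.03 to 1.11) and Ncam1 ILMN_1237421 by 0.44 (-0.07 to 0.94). Nptx2 differed by -0.36 (-0.92 to 0.20) and Nes ILMN_2703267 by -0.28 (-0.66 to 0.11). Of the 8 tested member probes limma called 0 (1 at an unadjusted p under 0.05, Homer2), where 0.0162% of all probes tested were called and 10.4% had an unadjusted p under 0.05. The arrays of the groups did not overlap for 4 of the 8, where 33.5% of all tested probes did not overlap. Apart from that of Homer2, the intervals given are wide beside the differences and reach across 0. The missed threshold thus does not show that the groups were alike, for Homer2 or for the others.

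Sin3a against EV was to be tested on probes with a mean log2 above 9 in 8 arrays, and 0 member probes qualified. In 7 arrays, with 1 Sin3a array, limma called 0 of 8 member probes (3 at an unadjusted p under 0.05), where 0% of all 18558 probes were called and 3.55% had an unadjusted p under 0.05. The 3 were the measured Sox21 probes and Ncam1 ILMN_1237421. Sox21 ILMN_1254295 differed from EV by 1.86 (log2, 95% interval 1.16 to 2.55). Sox21 ILMN_3163306 differed by 1.04 (0.53 to 1.55), a lower bound, since both EV arrays were at the floor. That probe passed the filter only through the first Sin3a array and 1 Nanog+Sin3a array. Its higher Sin3a value was thus fixed in advance and adds nothing to the other probe. Both Sin3a arrays were above all 6 other arrays in these 2 probes, and neither probe reaches the range where the second array matched the first. Homer2 on the first Sin3a array differed from EV by 0.27 (-0.01 to 0.55) and Nes ILMN_2703267 by 0.02 (-0.45 to 0.50).

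Against Sin3a, the Nanog+Sin3a arrays show Nanog in cells that also carry Sin3a. These are the Nanog+Sin3a arrays on which the members had stood out, so the values are a description and no p is given. In 7 arrays, with 1 Sin3a array, Homer2 was 5.26-fold higher (log2 2.39, SE 0.12), Nptx2 at least 6.62-fold higher (log2 2.73, SE 0.28) and Sox21 ILMN_1254295 6.54-fold lower (log2 -2.71, SE 0.29). Nptx2 was above 16 only on the 4 arrays with the Nanog transgene and passed the filter through them. With all 8 arrays the log2 differences were 1.90 for Homer2 (SE 0.33), 2.73 for Nptx2 (SE 0.53) and -3.05 for Sox21 (SE 0.51).

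The interaction asks whether the effect of Sin3a differed with and without Nanog. In 7 arrays the effect without Nanog rests on 1 Sin3a array. Sox21 ILMN_3163306 had an interaction of -0.91 (log2), with its EV and Nanog arrays at the floor. It passed the filter only through that Sin3a array and 1 Nanog+Sin3a array. Its higher Sin3a value, and so part of its interaction, was fixed in advance. Its place in the count below thus adds nothing to the other Sox21 probe. In 7 arrays Sox21 ILMN_1254295 had an interaction of -1.32 (log2, 95% interval -2.22 to -0.42, limma adjusted p = 0.938), and Homer2 one of 0.30 (-0.06 to 0.66, adjusted p = 0.978). limma called 0 of the 8 member probes (2 at an unadjusted p under 0.05, both of Sox21), where 0% of 18558 probes were called and 5.14% had an unadjusted p under 0.05.

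Other genes of the same pathways were taken from 11 lists, with each gene at its brightest tested probe. Of 130 such genes on the array, 51 were tested in 7 arrays. With Nanog+Sin3a against EV 3 rose and 2 fell, or 9.80% of the 51 against 5.87% of all probes, and the median difference of the 51 was 0.12 against 0 over all probes. With Nanog against EV 0 rose and 2 fell, or 3.92% against 2.04% of all probes. Ptx3, among those that fell in both comparisons, passed the filter only through arrays without the Nanog transgene, so its fall was fixed in advance. With Nanog+Sin3a against Nanog limma called 0 of 51 (6 at an unadjusted p under 0.05), where 0.0162% of all probes were called and 10.4% had an unadjusted p under 0.05. The count of 5 fell to 0 with all 8 arrays, where limma called 0.137% of all probes. It was 2 when the first Nanog array was dropped and 3 when the other was, where limma called 209 and 473 of all probes. The count of 2 fell to 0 with 8 arrays, where limma called 0% of all probes. It also fell to 0 without either Nanog+Sin3a array, where limma called 6 of all probes. Without 1 array of a compared group, calls were lost over all probes in both comparisons.

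Among 11 measured neural stem and progenitor genes, Egfr fell, Vim rose and 9 did not pass with Nanog+Sin3a. Egfr, the EGF receptor through which neural stem cells are kept dividing in culture, read 664.7 and 616.5 with EV, 437.4 and 373.1 with Nanog, and 398.5 and 371.7 with Nanog+Sin3a (log2 -0.73, SE 0.11, limma adjusted p = 0.0207). It also fell with Nanog alone (-0.66, adjusted p = 0.0414). Vim, the intermediate filament vimentin that pairs with nestin, was 1.30-fold higher with Nanog+Sin3a, just past the threshold (log2 0.38, SE 0.08, adjusted p = 0.0496), and it is also 1 of the 3 measured intermediate filaments, of which no other passed. Vimentin and the brighter nestin probe thus ran in opposite directions. Of the SoxB relatives of Sox21 only Sox2 and Sox14 were tested, and neither passed in the comparisons among EV, Nanog and Nanog+Sin3a. Sox2 read 16 and 2.8 with EV, 14.2 and 8.6 with Nanog, 42.6 and -7.6 with Sin3a, and 17.4 and 0.4 with Nanog+Sin3a. Its difference between Nanog+Sin3a and the first Sin3a array (log2 -1.35) rests on that 1 array, with the others near or below the floor. Sox14 read 31.7 and 22.1 with Nanog+Sin3a and 13 or less on the other arrays.

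Of 6 measured Notch pathway genes, Nrarp, a Notch target that dampens the pathway, rose with Nanog+Sin3a (112.3 and 118.3 with EV, 190.0 and 176.2 with Nanog+Sin3a, log2 0.67, SE 0.13, adjusted p = 0.0417) and 5 did not pass. Of 5 measured neural adhesion genes and enzymes, Cadm1, an immunoglobulin-family adhesion molecule, rose 2.03-fold with Nanog+Sin3a (log2 1.02, SE 0.12, adjusted p = 0.0112) and 4 did not pass. It read 189.8 and 183.3 with EV, 195.8 and 165.9 with Nanog, 363.3 and 396.1 with Nanog+Sin3a, and 287.7 on the first Sin3a array. Its rise over Nanog alone was 1.07 (SE 0.12, adjusted p = 0.117). St8sia2, which adds polysialic acid to Ncam1 and was looked at after its values were seen, read 54.9 and 66.7 with EV, 17.3 and 41.0 with Nanog, and 12.6 and 24.9 with Nanog+Sin3a (log2 -1.60, adjusted p = 0.0845 for Nanog+Sin3a).

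No gene of the synaptic lists rose past the test. None of 6 measured Homer partners and postsynaptic scaffolds was called by limma in the 3 comparisons among EV, Nanog and Nanog+Sin3a. Homer1, the relative of Homer2, read 104.7 and 103.3 with EV, 82.7 and 115.7 with Nanog, and 97.6 and 112.1 with Nanog+Sin3a (log2 0.01, SE 0.20 for Nanog+Sin3a). Itpr3, a calcium release channel, was at 0.20 (SE 0.18, adjusted p = 0.530). Among 3 measured pentraxins and AMPA receptor genes, Ptx3, a long pentraxin of innate immunity, ran against Nptx2. Its brightest probe read 86.8 and 88.4 with EV and 135.4 on the first Sin3a array. That probe was at or below 16 on all 4 arrays with the Nanog transgene. It was thus at least 5.47-fold lower with Nanog+Sin3a (log2 -2.45, SE 0.18), and limma called it there (adjusted p = 0.00299) and with Nanog (0.00565). It passed the filter only through arrays without the Nanog transgene, so its fall was fixed in advance and these p-values are no support. The other Ptx3 probe read 69.4 and 65.3 with EV, 7.6 and 21 with Nanog, and -10.2 and 23.5 with Nanog+Sin3a. No gene was called in those comparisons among 6 presynaptic genes (Rab3a -0.77, adjusted p = 0.176, and Vamp2 -0.18, 0.684, for Nanog+Sin3a against EV), 7 neuronal genes (Stmn2 -0.01, 0.991, and Mapt -0.12, 0.609), 5 genes of astrocytes and oligodendrocytes (Gja1 -0.13, 0.660, and Cnp 0.31, 0.393) or 2 fatty acid-binding proteins. Fabp5, of the family of Fabp7, was at 0.15 (0.690) and Fabp6 at 0.58 (0.388).

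**Figure D5:**
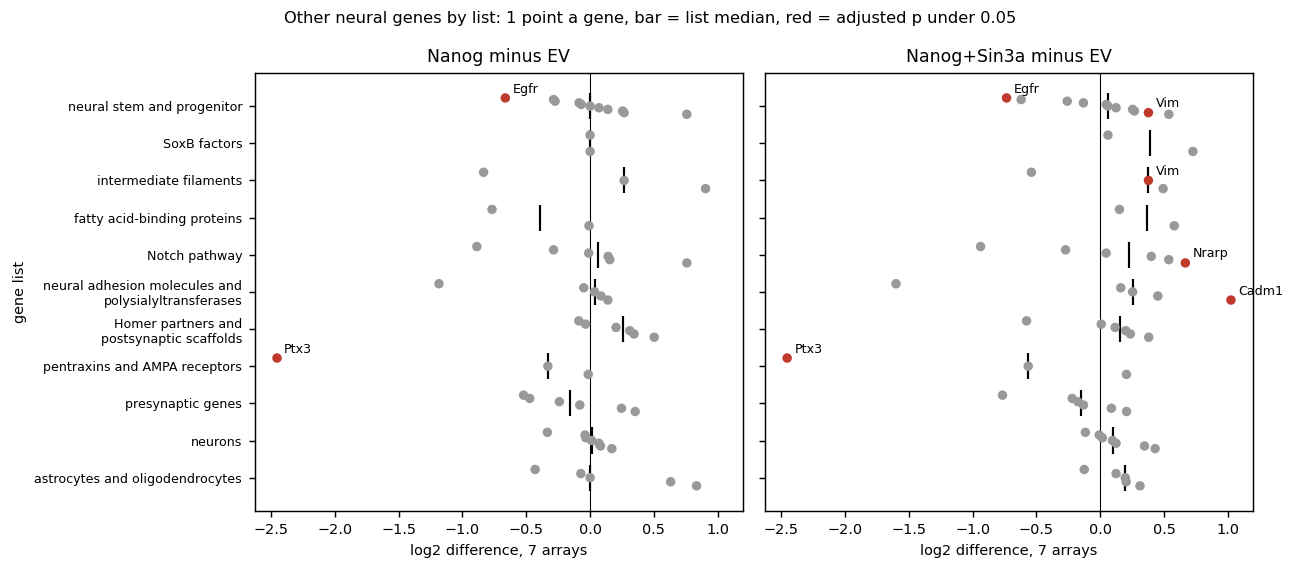
Log2 difference in 7 arrays of the measured genes of 11 neural gene lists (rows), for Nanog minus EV (left) and Nanog+Sin3a minus EV (right). Each point is 1 gene at its brightest tested probe, vertical bars are list medians, and red points passed limma's test at an adjusted p under 0.05 (Egfr and Ptx3 on the left, and these with Vim, Nrarp and Cadm1 on the right).

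Probes of other genes with the most similar course over the 7 arrays were found by the root mean square difference of log2 values after each probe's mean was removed, where 0 is an identical course. For Homer2 they were Fam20a (0.141), Igfbp6 (0.158) and Cdhr1 (0.170), and Cdhr1, a photoreceptor cadherin, read 49.8 and 46.6 with EV, 154.1 and 151.3 with Nanog, and 268 and 251.5 with Nanog+Sin3a. For Nptx2 they were Sprr2d (0.205), Evx1 (0.350) and Sh3rf2 (0.385). For Ncam1 they were Neurl1a (0.0562), Flt1 (0.146) and Rps6ka5 (0.148). Neurl1a, a neuralized ubiquitin ligase, read 103.3 and 88.7 with EV, 176.8 and 163.5 with Nanog, and 236.2 and 249.8 with Nanog+Sin3a. For Nes they were Dusp3 (0.0362), Eef2k (0.0715) and Ppp1r14b (0.0728). For Sox21 they were Mfng (0.398), Ptx3 (0.434) and Spink10 (0.445), all farther from it than the nearest probes of the other 4 members were from theirs. Mfng, a Fringe glycosyltransferase that modifies Notch, read 52.4 and 45 with EV, 90.2 on the first Sin3a array, and 12.9 or less on the 4 arrays with the Nanog transgene. Values under 16 entered as 16, so part of the likeness is set by the floor. Fam20a, Igfbp6 and Sprr2d were under 16 on both EV arrays, and Mfng and Spink10 on both Nanog arrays. Dusp3 was under 16 with Nanog+Sin3a (-3.5 and 1.8) and at most 28.6 on the 7 arrays.

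The labelled cell type was set against defining markers. Of 12 pluripotency markers 4 were above 16 on all 7 arrays and 4 on none, with Pou5f1 at 903.5 to 1167 and Dppa3 at or below 10.3. Sall4, a zinc-finger factor of pluripotent cells, fell with Nanog+Sin3a, from 258.2 and 226.1 with EV to 88.5 and 98.5 (log2 -1.37, SE 0.16, limma adjusted p = 0.0108). Of 7 neural stem cell markers on the array, only Nes was above 16 on all 7 arrays and 4 were on none. Their summed intensity was 108 to 116.5 on the EV arrays, 89.0 and 99.4 with Nanog, and 61.0 and 89.7 with Nanog+Sin3a. It was 170.8 on the first Sin3a array, which also held the highest Sox21 value of the 7, and 97.4 on the second. The 170.8 included Sox2 at 42.6 and Hes5 at 24.8. Of 6 neuronal markers 2 were above 16 on all 7 arrays, Stmn2 at 1637 to 2018 and Map2 at 108 to 231, while Rbfox3 and Snap25 were on none, and the sum was 1823 to 2273 over the 8 arrays with the groups overlapping. Of 8 fibroblast or mesenchymal markers 2 were above 16 on all 7 arrays and 4 on none, among them Col1a2 and Col3a1. That sum was 463.5 and 482 with EV, 690 and 758 with Nanog, and 645 and 687 with Nanog+Sin3a. It was 509 on the first Sin3a array and 645.1 on the second. Thy1, an adhesion protein that neurons also carry, rose 2.19-fold with Nanog (limma adjusted p = 0.0131) and 1.69-fold with Nanog+Sin3a (0.0223). Dcn, the matrix proteoglycan decorin, read 14.3 and -3.1 with EV and 92.6 and 79.4 with Nanog+Sin3a, at least 5.36-fold higher. It was above 16 only on the 4 arrays with the Nanog transgene and passed the filter through them. Its rise was thus fixed in advance, and a second tested Dcn probe was at 0.42 (log2) for Nanog+Sin3a against EV. Twist1, a mesenchymal transcription factor, ran the other way, with 243.6 and 235.7 with EV, 216.6 and 180.6 with Nanog, and 211 and 206 with Nanog+Sin3a. Among the 7 arrays the sum was thus higher through Thy1 and Dcn on the 4 arrays on which Homer2 and Nptx2 were high. Col1a2 and Col3a1 were at most 14.6 there, and the part of such cells in those results was not tested. For 6 epithelial markers the sum was 1189 and 1200 with EV, 859 and 861 with Nanog, and 938 and 1278 with Nanog+Sin3a, with Epcam at 0 or below on the 7 arrays. The 4 endothelial markers summed to 45.4 and 66.5 with EV, 91.7 and 101.3 with Nanog, and 143.4 and 102.9 with Nanog+Sin3a. Their sum was 70.3 on the first Sin3a array and 364.4, the highest of all, on the second. Among the 7 arrays this sum too was higher where Homer2 and Nptx2 were. Such sums also count readings under 16. Tek, the angiopoietin receptor, was the only one above 16 on all 7 arrays and rose 2.33-fold with Nanog+Sin3a (limma adjusted p = 0.0239), and the part of such cells was not tested either. The 3 blood markers summed to at most 36.4 on the 7 arrays, and none was above 16 on all of them.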

How the data were processed

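RNA was measured on 8 Illumina bead arrays, with biotinylated cRNA made by an Ambion MessageAmp kit per the labels' protocols. The authors deposited 1 linear intensity per probe and array, made with GenomeStudio per the submitters' processing notes, with no version or settings given. Values ran from -24 to 14965 with 47.3% to 47.7% below 0, so a background had been subtracted, and near-identical quantiles showed that arrays had been normalised to each other.

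Values under the floor of 16 were set to 16 before taking log2. Of the probes, 34885 carry 1 symbol in the platform annotation, 18 carry several and 10378 carry none, and 34807 were matched to a RefSeq gene table (GRCm38.p6) with 0 symbols changed. Probes above the floor on at least 2 of the 7 arrays without the second Sin3a array were tested (18558), each probe apart. The test was limma 3.58.1 in R 4.3.3 (lmFit, then eBayes with trend), with a coefficient for each group and 3 residual degrees of freedom. P-values are two-sided and Benjamini-Hochberg adjusted over all tested probes at 0.05. Comparisons with Sin3a were planned on the 2670 probes with a mean log2 above 9 in 8 arrays. The fit was checked on simulated data. The number of arrays limits the precision.

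The members, lists, filter and main fit were chosen with earlier results of these data known. Named genes were the members, up to 3 passing genes per list with the largest change in Nanog+Sin3a against EV, or else the 2 with the highest mean, and the 3 probes most like each member. Alternatives covered the arrays, floor, filter, normalisation, probes per gene, trend, replicate block and each array left out.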

Additional observations from a re-analysis of the deposited data

Results flagged for a closer look

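The second Sin3a array entered none of the main comparisons of the members, and 6 member probes read above 16 and above both EV arrays on it. They were Sox21 ILMN_1254295 at 428.2 and Sox21 ILMN_3163306 at 80.8, Homer2 at 227.3, Nes ILMN_2904590 at 132.3, Ncam1 ILMN_1254093 at 23.9, and Olig2 at 16.7. On the first Sin3a array the same probes read 268.7, 32.9, 114.9, 32.4, -4.8 and -6.9, so the Sox21 and Homer2 probes were above both EV arrays there too, while the other 3 were not. None of the 6 probes has a mean log2 above 9, the range where the Sin3a arrays matched. Among probes with a mean between 5 and 9, 68.6% differed by over 1 (log2) between them, and 4 of the 6 probes are dimmer than that. Whether the 6 values reflect RNA was not tested. Groups of 2 arrays allow no search for single outlying values within a group.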

How the results depend on the processing

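Of 353 values for single member probes under the alternatives, 292 kept their direction and side of the threshold, 53 kept the direction and lost the call, 1 gained it (Sox21 ILMN_1254295 in Nanog+Sin3a minus EV, with a floor of 32) and 7 turned sign, all of the dim Nes probe ILMN_2904590. That probe gave -0.00896 with a floor of 32 for Nanog minus EV, and with arrays left out -0.36 to 0.44 for Nanog minus EV, -0.62 to 0.18 for Nanog+Sin3a minus EV and -0.65 to 0.14 for Nanog+Sin3a minus Nanog. Sizes near the floor moved with it. With a floor of 32 Nptx2 was at 2.09 for Nanog and 1.73 for Nanog+Sin3a minus EV, in place of 3.09 and 2.73.

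For Nanog minus EV, the 3 member probes called became 0 with all 8 arrays, 0 on bright probes (none was tested), 1 with no filter, and 0 to 3 with an array left out. The 2 list genes became 0 with 8 arrays, 1 on bright probes, 5 with a floor of 32, 0 with a floor of 8, 1 with no filter, 1 without the trend, 1 with the replicate block, and 0 to 2 with an array left out. For Nanog+Sin3a minus EV, the 4 member probes became 0 with 8 arrays, 0 on bright probes, 2 with a floor of 8, 1 with no filter, and 0 to 4 with an array left out. The 5 list genes became 0 with 8 arrays, 1 on bright probes, 3 with a floor of 8, 1 with no filter, 2 without the trend, 4 with the replicate block, and 0 to 5 with an array left out. The 0 list genes for Nanog+Sin3a minus Nanog became 1 with a floor of 32. For Nanog+Sin3a minus Sin3a, 0 member probes could be tested on bright probes. In 7 arrays the Sin3a group is 1 array, so no count is given there. Against EV, leaving out 1 array of a compared group lost the calls of all probes, members or not. Fewer arrays or more tested probes are part of some of these settings, and the cause of the rest was not tested.

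Same-numbered arrays did not deviate together (correlations of -0.0534 to 0.0163 over 18558 probes), so the numbers do not pair them. With the replicate block, limma called 196 probes in place of 378 for Nanog minus EV and 573 in place of 1090 for Nanog+Sin3a minus EV. Of the member probes 2 and 3 were called, with Sox21 ILMN_1254295 and Nes ILMN_2703267 no longer among them. Among list genes, Egfr lost its call for Nanog minus EV, and Vim and Nrarp lost theirs for Nanog+Sin3a minus EV, where St8sia2 (log2 -1.60, limma adjusted p = 0.0478) gained one.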
